A study of Mus musculus with 6 samples.

Results

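Macrophages are specified by a small set of transcription factors, and the transcripts of 9 of them, Spi1, Cebpa, Cebpb, Cebpd, Maf, Klf2, Klf4, Klf6 and Runx1, are described here. They were taken by gene symbol from a deposited expression table of 55736 genes. Each symbol had 1 row, and all 9 passed the filter that left 12440 genes for testing. The cells were mouse bone marrow-derived macrophages, cultured from marrow, of genotype WT (wild type). Of the 6 libraries, 3 are untreated controls labelled 24 h and 3 are from cells given 200 ng/ml lipopolysaccharide (LPS) for 24 h. LPS is the glycolipid of Gram-negative bacteria that Toll-like receptor 4 senses. The titles of the treated samples also carry the number 500, which the labels do not explain. By its title the study asks about the chemokine CCL7 in arthritis; LPS against control is the comparison described here.

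PU.1, the ETS-domain protein encoded by Spi1, binds throughout the macrophage genome and opens chromatin for other factors. It works with C/EBP proteins, which are basic leucine zipper factors, and with RUNX1, which pairs with CBF beta. C/EBP alpha is known for myeloid commitment and C/EBP beta and delta for responses to inflammatory signals, while c-Maf restrains self-renewal of mature macrophages and Krüppel-like factors (KLF), which bind DNA by zinc fingers, tune activation.

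The culture had the transcripts of macrophages in both groups. All 14 macrophage markers on a list passed the filter, which a gene can pass through 1 group alone. Among them, Csf1r had 1675 ± 97.1 TPM without LPS and 1251 ± 71.8 TPM with LPS, and Mertk 80.8 ± 5.83 and 61.0 ± 4.51 TPM. Marco was low without LPS, at 4.64 ± 0.969 TPM (SD, n = 3 each). The sum of the 14 ranged from 32447.7 to 34280.6 TPM without LPS and from 39365.5 to 42029.6 TPM with LPS. Most of this sum was Lyz2, whose mean was 21394 TPM without LPS and 29245 TPM with it. Of the 14 markers 6 were called higher and 8 lower by limma, where 16.3% of all tested genes were called higher and 59.8% lower. TPM is a length-corrected share of a fixed total per library. Spearman correlations of the libraries were 0.983 to 0.987 within groups and 0.826 to 0.838 across groups. Over all tested genes the median log2(TPM + 1) change, LPS minus control, was -0.44, so that a typical transcript had a lower share after LPS. The change of each factor described here is therefore also given after median-of-ratios scaling, which brings that median to 0.00 and so shifts the changes upward. Most genes named beside the factors are given on TPM as deposited alone, where that median is not brought to 0.00. In RNA from a whole culture, fewer cells with a transcript and less of it per cell cannot be told apart.

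Among the 9 factors, Cebpb, Cebpd and Spi1 rose after LPS and Cebpa and Klf4 fell, on both scales. Cebpb went up 4.94-fold and Cebpd 2.24-fold in mean TPM, while Cebpa went down 5.95-fold. Maf, Runx1 and Klf6 were called lower on TPM as deposited but not after median-of-ratios scaling, where Klf6 was called higher. On TPM as deposited 3 of 9 factors were called higher and 5 lower by limma at an adjusted p under 0.05, where 16.3% of all tested genes were called higher and 59.8% lower. After median-of-ratios scaling 5 were called higher and 2 lower, against 33.5% and 33.6% of all tested genes. The control and LPS libraries did not overlap in 8 of the 9 factors, and 78.6% of all tested genes were without overlap too, so that this count is near the background. The median change of the 9 was -0.21 beside -0.44 for all tested genes, and after scaling 0.29 beside 0.00.

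**Figure D1:**
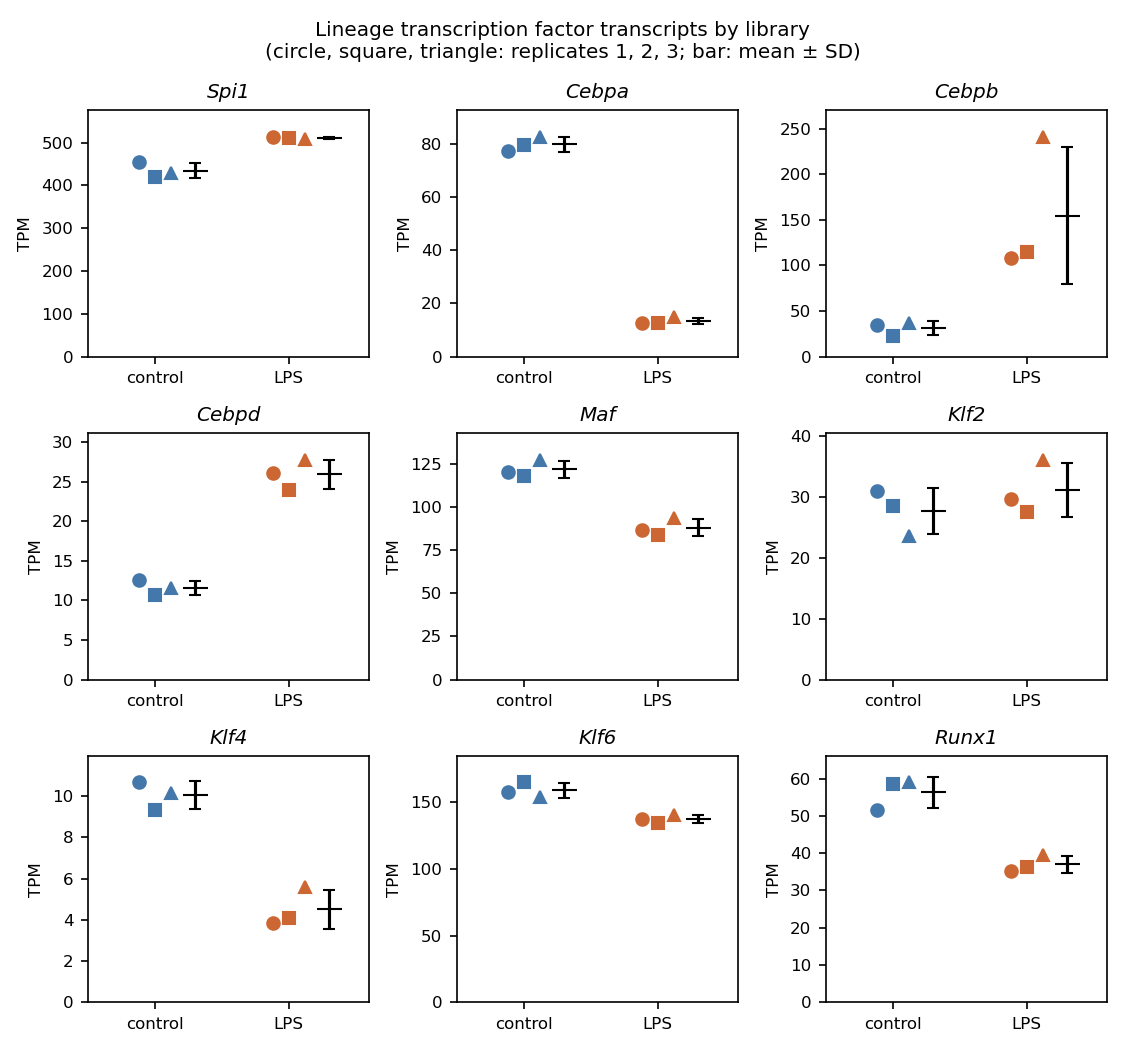
TPM of the 9 factors in each library, with control in blue and LPS in orange; symbols mark replicates 1, 2 and 3, and the black bar is the mean ± SD of 3 libraries. Mean Cebpa falls from 79.7 to 13.4 TPM, Cebpb rises with LPS replicate 3 at 241 TPM, and only Klf2 has groups that overlap.

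The C/EBP genes changed places. Cebpa, the C/EBP of myeloid commitment, lies on GRCm38 chromosome 7 from 35119293 to 35121928 on the plus strand, with 1 exon in its first annotated transcript. It had 77.2, 79.5 and 82.6 TPM without LPS against 12.8, 12.7 and 14.8 TPM with LPS. All control libraries were far above all LPS libraries, and the spread within a group was small (79.7 ± 2.72 against 13.4 ± 1.18 TPM, SD, n = 3 each). The log2 change was -2.49 (SE 0.07, limma adjusted p = 1.32e-07), or -2.01 after median-of-ratios scaling (limma adjusted p = 3.80e-07). Only 3.6% of tested genes had a lower change.

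Cebpb encodes C/EBP beta, also called NF-IL6, which is known for the induction of acute-phase and cytokine genes. It is a gene of 1 exon on chromosome 2, from 167688915 to 167690418 on the plus strand. Its values were 34.4, 22.98 and 36.7 TPM without LPS and 108, 114 and 241 TPM with LPS. Every LPS library was above every control library, but the third LPS library stood at 2.17 times the mean of the other two. The LPS mean was 155 ± 75.0 TPM and the control mean 31.3 ± 7.32 TPM (SD, n = 3 each). The log2 change was 2.19 (SE 0.32, limma adjusted p = 0.000528), and 1.82 without the third LPS library (limma adjusted p = 0.000336), whose absence lowers the LPS mean to 111 TPM. After median-of-ratios scaling the change was 2.68 (limma adjusted p = 0.000289).

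The third LPS library was the highest LPS library for 8 of the 9 factors, all but Spi1. For 7 of those 8 it had at most 1.36 times the value of the next library, and for Cebpb 2.11 times. It stood at least 2-fold above both other LPS libraries in 33 tested genes of 5 TPM or more, close to the 26 and 32 genes in which the first and second LPS library did so. Cebpb is 1 of these 33, and why was not tested.

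Cebpd, whose product C/EBP delta acts beside C/EBP beta in acute inflammation, lies on chromosome 16 from 15887286 to 15891031 on the plus strand, also with 1 exon in its first transcript. It had 12.5, 10.7 and 11.5 TPM without LPS and 26.2, 24.0 and 27.7 TPM with LPS. The groups were well apart and even within themselves (11.6 ± 0.926 and 25.9 ± 1.85 TPM, SD, n = 3 each). The log2 change was 1.10 (SE 0.09, limma adjusted p = 1.76e-05), or 1.57 after scaling (limma adjusted p = 3.99e-06).

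Within a library the ratio of 2 transcripts does not depend on a scaling factor applied to the whole library. The Cebpb to Cebpa ratio was 0.445, 0.289 and 0.444 in control and 8.46, 9.04 and 16.3 in LPS libraries, so that Cebpa was the larger in every control library and Cebpb in every LPS library. The geometric mean of this ratio was 28.0-fold higher after LPS, or 22.7-fold without the third LPS library. The Cebpd to Cebpa ratio crossed 1 too, from 0.146 ± 0.0149 to 1.94 ± 0.0906 (SD, n = 3 each). Cebpa held 55.9% ± 3.22 of the summed TPM of Cebpa, Cebpb, Cebpd, Cebpe and Cebpg in control and 7.0% ± 1.71 in LPS libraries. Cebpb went the other way, from 21.8% ± 4.07 to 73.9% ± 7.25. The sum itself was 146, 134 and 148 TPM without LPS and 158, 161 and 293 TPM with LPS. Each of 10 such ratios between factors was compared by an exact two-sided permutation test, in which 3 against 3 libraries cannot go below p = 0.1. All 10 reached that smallest value, BH-adjusted 0.1, and their groups did not overlap. The 10 share genes and are not independent of one another. Of single tested genes 78.6% were without overlap too, and no such share was computed for ratios.

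**Figure D2:**
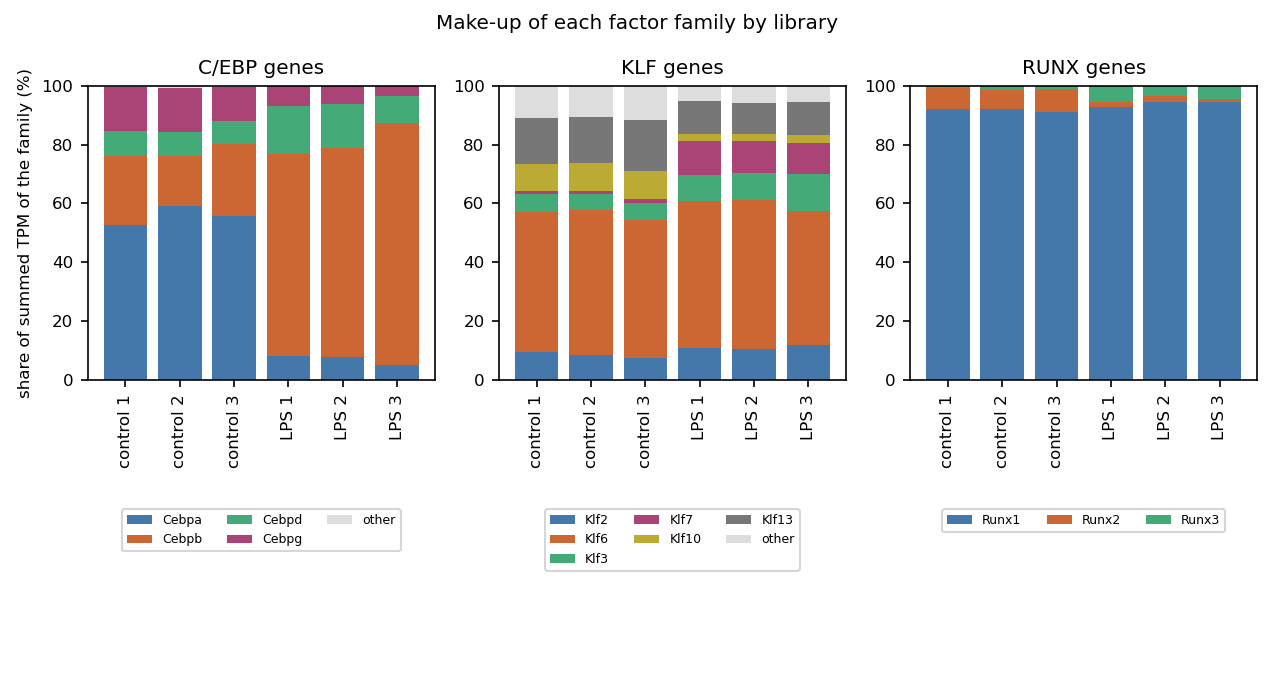
Share of each gene in the summed TPM of its family (percent, vertical axis) for the 6 libraries, with genes that never reach 5% pooled as other. Cebpa holds 52.7% to 59.2% of C/EBP TPM without LPS and 5.03% to 8.11% in LPS libraries, where Cebpb holds 68.6% to 82.2%, while Runx1 holds 91.3% to 94.7% of RUNX TPM in all 6.

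The promoters of Cebpa and Cebpb are shown because these genes moved in opposite directions. Both windows run 250 bases before to 50 after the RefSeq gene start (GRCm38.p6, plus strand), and capitals mark the single match to any of 9 motifs searched.

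Cebpa, chr7:35119043-35119342: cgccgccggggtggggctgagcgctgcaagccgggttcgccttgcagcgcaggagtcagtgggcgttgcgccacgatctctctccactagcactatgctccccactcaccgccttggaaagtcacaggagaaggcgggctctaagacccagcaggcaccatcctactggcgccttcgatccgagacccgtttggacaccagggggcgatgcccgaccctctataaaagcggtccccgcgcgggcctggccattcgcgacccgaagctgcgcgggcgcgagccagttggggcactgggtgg

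Cebpb, chr2:167688665-167688964: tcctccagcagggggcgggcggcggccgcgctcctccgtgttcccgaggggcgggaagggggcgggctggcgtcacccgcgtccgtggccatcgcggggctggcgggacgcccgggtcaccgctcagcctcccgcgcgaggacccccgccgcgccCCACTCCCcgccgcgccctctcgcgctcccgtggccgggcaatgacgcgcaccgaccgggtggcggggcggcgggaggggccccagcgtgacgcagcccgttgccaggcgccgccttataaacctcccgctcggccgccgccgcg

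The Cebpb window holds a KLF motif (CCACNCCC, on the plus strand as CCACTCCC, 95 bases before the start), which 17.6% of 32851 RefSeq promoters hold. The Cebpa window holds none of the letters searched on either strand. These were CCACNCCC for KLF, GGNNTTTCC for NF-kB, TTCNNNGAA for STAT, TTGCNNAA for C/EBP, GAAANNGAA for ISRE, TGANTCA for AP-1, TGACGTCA for CRE, GAGGAAGT for PU.1 and CACGTG for the E-box. The shares of all promoters that hold them were 5.82% for NF-kB, 8.30% for STAT, 10.8% for C/EBP, 8.56% for ISRE, 7.81% for AP-1, 1.79% for CRE, 3.20% for PU.1 and 7.15% for the E-box. Strings with free positions (N) can overlap one another. A match is a string of letters and not a binding site.

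RefSeq promoters were matched for 6 of the 9 factors, with 2 for Runx1. Most of these windows are rich in G and C. The Cebpb window has 80.7% G and C and 50 CpG dinucleotides, Klf4 74.3% and 40, Klf2 69.3% and 32, Cebpa 67.3% and 29, and Klf6 63.0% and 23, where the medians of all promoters are 52.7% and 7. Runx1 differs between its starts: the upstream promoter has 45.0% and 2 CpG, the downstream one 69.0% and 35. Of the 9 motifs, the E-box stood in the windows of Klf4, Klf6 and upstream Runx1, and the NF-kB letters in downstream Runx1.

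Neither the labels nor the file header state whether reads were counted by strand, and 5 of the 9 genes overlap an annotated gene on the other strand. Tmem189 overlaps Cebpb by 908 bases and had 166 ± 3.15 TPM without LPS and 124 ± 7.09 TPM with LPS (SD, n = 3 each). It fell where Cebpb rose (limma log2 change -0.42, adjusted p = 0.000217), and LPS replicate 3 had 132 TPM of it beside 120 and 119. Spidr overlaps Cebpd by 1808 bases with 16.9 ± 1.73 and 14.9 ± 0.184 TPM, without passing the test (limma adjusted p = 0.110). The antisense Gm45091 overlaps the start of Cebpa by 313 bases and had at most 1.07 TPM. Gm15655, which lies antisense within Maf, had 66.7 ± 13.8 and 42.3 ± 3.42 TPM (limma adjusted p = 0.00651), and reads of such a pair cannot be told apart without strand. Gm26626 within Runx1 had at most 0.210 TPM.

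Spi1 was the most abundant of the 9 in both groups. It lies on chromosome 2 from 91082390 to 91115756, plus strand, with 5 exons in its first transcript. It had 455, 419 and 429 TPM without LPS and 514, 510 and 509 TPM with LPS. The groups were close but did not overlap, and the LPS libraries were almost equal (435 ± 18.2 and 511 ± 2.65 TPM, SD, n = 3 each). The rise of 0.23 on the log2 scale (SE 0.04, limma adjusted p = 0.00194) was 0.73 after scaling (limma adjusted p = 1.49e-05). Of 376 tested genes that the deposited Gene Ontology column annotates with sequence-specific transcription factor activity, which include 7 of the 9 factors but neither Cebpd nor Klf6, Spi1 ranked 1 by level in control and 2 in LPS libraries. Cebpb went from rank 100 to 10 and Cebpa from 35 to 158 in the same order.

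With Spi1 as the reference within a library, the Cebpa to Spi1 ratio was 0.184 ± 0.0123 without LPS and 0.0263 ± 0.00241 with it, and that of Klf4 to Spi1 0.0231 ± 0.000749 and 0.00886 ± 0.00188. The Cebpb to Spi1 ratio was 0.0719 ± 0.0156 and 0.303 ± 0.148 (SD, n = 3 each; exact two-sided permutation p = 0.1 for each, the smallest possible). In none of these did the groups overlap.

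Other ETS genes went both ways, since 6 of 14 tested rose while 8 fell (7 and 6 after scaling), and 3 more of the 17 listed were under the filter. Beside them, 16.3% of all tested genes were called higher and 59.8% lower (33.5% and 33.6% after scaling). Spic, a close relative of Spi1 known from red pulp macrophages, rose from 2.09 ± 0.355 to 30.3 ± 2.77 TPM and Ets2, a target of MAP kinase signalling, from 12.6 ± 0.185 to 109 ± 1.68 TPM (limma adjusted p = 3.01e-07 and 1.50e-08). Ets1 fell from 8.96 ± 0.854 to 1.33 ± 0.352 TPM and the repressor gene Etv3 from 60.2 ± 1.27 to 15 ± 0.524 TPM (limma adjusted p = 7.11e-06 and 1.12e-07). The median change of the tested ETS relatives was -0.52 beside -0.44 for all tested genes.

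Runx1, the DNA-binding subunit that regulates Spi1 and other myeloid genes, lies on chromosome 16 from 92601466 to 92826149 on the minus strand and has 8 exons in its first transcript. It had 51.6, 58.6 and 59.0 TPM without LPS and 35.3, 36.4 and 39.6 TPM with LPS. The groups did not overlap, and the fall of 0.59 on the log2 scale (SE 0.07, limma adjusted p = 0.000234) compares with a median of -0.44 over all tested genes. After scaling it was -0.10 and did not pass (limma adjusted p = 0.212; 95% interval -0.26 to 0.06). Its partner Cbfb fell further, from 103 ± 2.86 to 38.6 ± 1.63 TPM (limma adjusted p = 4.14e-07), so that the Runx1 to Cbfb ratio went from 0.548 ± 0.0428 to 0.963 ± 0.0595 (SD, n = 3 each).

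Runx1 made up 91.9% ± 0.57 of RUNX TPM without LPS and 94.0% ± 1.03 in LPS libraries. The smaller members exchanged ranks at low levels, since Runx2, known from bone, fell from 4.31 ± 0.582 to 0.627 ± 0.189 TPM and Runx3, known from lymphocytes and dendritic cells, rose from 0.657 ± 0.275 to 1.74 ± 0.358 TPM (limma adjusted p = 2.50e-05 and 0.00616). Runx2 was under 1 TPM in every LPS library and Runx3 in every control library. Each passed the filter only through the other group, which fixed the direction of its call. Of the 6 listed RUNX, CBF and ETO genes 4 were tested, of which 1 rose and 3 fell, or 1 and 2 after scaling. Among all tested genes the shares were 16.3% and 59.8%, or 33.5% and 33.6% after scaling.

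Maf, which encodes c-Maf, an activator of Il10, lies on chromosome 8 from 115682942 to 115707794 on the minus strand, with 3 exons in its first transcript. It had 121, 118 and 128 TPM without LPS and 86.6, 84.1 and 93.8 TPM with LPS. The groups did not overlap (122.1 ± 4.94 and 88.1 ± 5.01 TPM, SD, n = 3 each). The log2 change of -0.47 (SE 0.06, limma adjusted p = 0.000217) lay beside a median of -0.44 over all tested genes, and after scaling it was 0.03 and did not pass (limma adjusted p = 0.696; 95% interval -0.11 to 0.16).

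Small MAF genes, which lack an activation domain, parted: Maff rose from 2.14 ± 0.569 to 8.57 ± 1.40 TPM and Mafg from 43.7 ± 2.81 to 71.7 ± 2.94 TPM, while Mafk fell from 18.3 ± 0.705 to 15.4 ± 0.502 TPM (limma adjusted p = 8.99e-05, 3.95e-05 and 0.0128), a fall that turned to a rise of 0.24 after scaling.

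Of 8 listed MAF targets, all tested, 2 rose and 5 fell, or 3 and 3 after scaling. All tested genes had shares of 16.3% called higher and 59.8% lower, or 33.5% and 33.6% after scaling. The complement genes C1qb and C1qc fell from 2066 ± 135 to 1040 ± 42.9 TPM and from 1301 ± 156 to 640 ± 26.2 TPM (limma adjusted p = 5.33e-06 and 3.37e-05). Their log2 changes were -0.99 and -1.02, or -0.49 and -0.52 after scaling (limma adjusted p = 0.000809 and 0.00284). The mannose receptor gene Mrc1 had the steepest fall of this list, to 6.42 ± 1.46 TPM from 172 ± 8.09 TPM (limma adjusted p = 1.78e-07). In the opposite direction, Il10, which encodes an anti-inflammatory cytokine, rose from 7.56 ± 0.722 to 17.5 ± 1.19 TPM and the scavenger receptor gene Marco from 4.64 ± 0.969 to 836 ± 19.4 TPM (limma adjusted p = 2.62e-05 and 1.63e-08).

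The 3 KLF factors moved differently. Klf4, which is known for monocyte differentiation and for alternative activation, lies on chromosome 4 from 55527143 to 55532466 on the minus strand, with 5 exons in its first transcript. It had 10.7, 9.32 and 10.1 TPM without LPS and 3.86, 4.11 and 5.60 TPM with LPS, with no overlap. The log2 change was -1.01 (SE 0.13, limma adjusted p = 0.000300), and -0.58 after scaling (limma adjusted p = 0.00607). It was the lowest of the 9 in both groups.

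Klf2, known for restraining inflammatory activation, lies on chromosome 8 from 72319033 to 72321656 on the plus strand and has 3 exons. It had 31.0, 28.5 and 23.6 TPM without LPS and 29.7, 27.5 and 36.2 TPM with LPS. The groups overlapped, and the log2 change of 0.16 did not pass (SE 0.13, limma adjusted p = 0.285; 95% interval -0.14 to 0.47; exact permutation p = 0.5). After median-of-ratios scaling Klf2 was called higher, with a change of 0.64 (limma adjusted p = 0.00260).

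Klf6, which is known to act with NF-kB in inflammatory macrophages, lies on chromosome 13 from 5861482 to 5870394 on the plus strand, with 4 exons in its first transcript. It had 158, 165 and 154 TPM without LPS and 137, 135 and 140 TPM with LPS. These groups did not overlap, but the change was small (-0.21, SE 0.04, limma adjusted p = 0.00369), and it turned to 0.29 after scaling (limma adjusted p = 0.000322). Relative to Klf4 in the same library, Klf6 went from 15.9 ± 1.56 to 31.2 ± 5.47 and Klf2 from 2.76 ± 0.383 to 6.95 ± 0.659 (SD, n = 3 each). Relative to Klf2, Klf6 went down from 5.81 ± 0.717 to 4.47 ± 0.527.

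Klf6 held 48.1% ± 1.09 of all KLF TPM without LPS and 48.8% ± 2.75 in LPS libraries, while genes around it changed. Klf7 rose from 3.69 ± 0.523 to 31.1 ± 1.47 TPM and Klf3, a repressor, from 19.1 ± 1.47 to 29.4 ± 8.26 TPM (limma adjusted p = 3.18e-07 and 0.0196), the latter with 39.0 TPM in the third LPS library beside 24.8 and 24.5. The call of Klf3 was lost without control replicate 2 or 3 (limma adjusted p = 0.0566 and 0.0552). Klf9, a glucocorticoid target, fell from 11.6 ± 1.33 to 1.57 ± 0.108 TPM, and Klf10, a target of TGF-beta, from 31.3 ± 0.698 to 6.85 ± 0.833 TPM (limma adjusted p = 1.40e-06 and 1.00e-06). Klf13, the most abundant KLF besides Klf6 in control libraries, fell from 53.5 ± 2.27 to 30.9 ± 3.42 TPM (limma adjusted p = 0.000108). Its log2 change was -0.78, or -0.29 after scaling (limma adjusted p = 0.0141). Of 14 listed KLF relatives 8 were tested, of which 2 rose and 5 fell, or 3 and 4 after scaling. Over all tested genes 16.3% were called higher and 59.8% lower, or 33.5% and 33.6% after scaling. Klf14, Klf15 and Klf17 were listed at 0 in every library.

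Of 5 listed KLF2 and KLF4 targets only 2 passed the filter, and both fell on both scales. On these scales 59.8% and 33.6% of all tested genes were called lower. S1pr1, a receptor for sphingosine 1-phosphate, went from 48.0 ± 1.04 to 6.38 ± 0.542 TPM and the thrombomodulin gene Thbd from 12.2 ± 0.630 to 1.88 ± 0.269 TPM (limma adjusted p = 8.87e-08 and 1.35e-06).

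**Figure D3:**
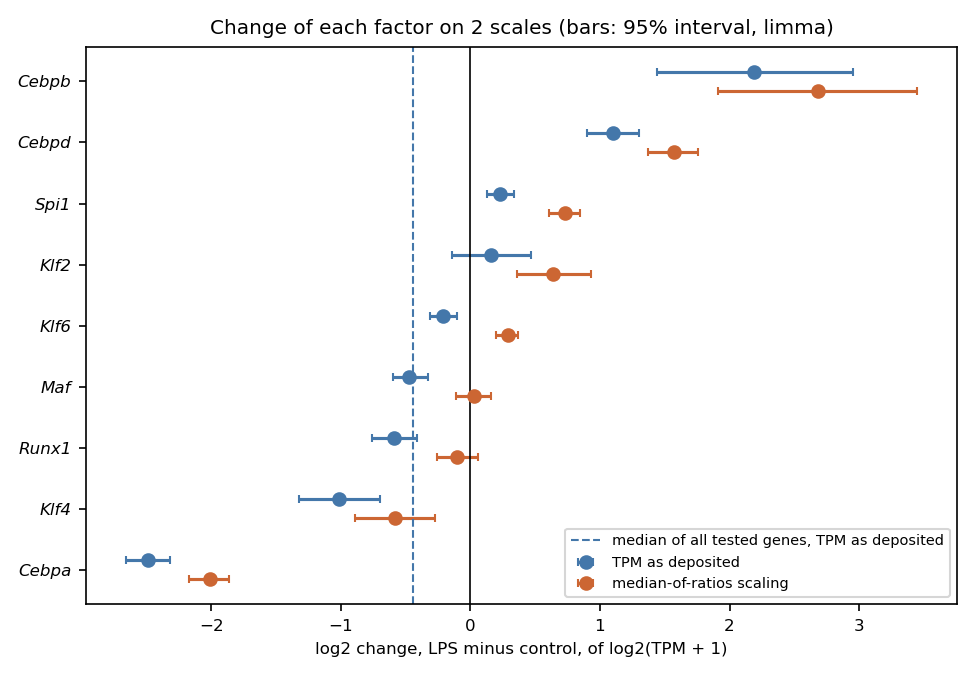
Change of log2(TPM + 1), LPS minus control, of each factor on TPM as deposited (blue) and after median-of-ratios scaling (orange), with 95% limma intervals and the median of all tested genes as a dashed line. Cebpb, Cebpd and Spi1 lie above 0 and Cebpa and Klf4 below 0 on both scales, whereas Klf6 crosses 0 between them.

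Genes known as targets of C/EBP beta and delta rose without exception in the list used, 11 of 11 on either scale. Of all tested genes 16.3% were called higher on TPM as deposited and 33.5% after scaling. The median change of the list was 4.22 beside -0.44 for all tested genes. That list was written with the steep rise of several of its genes already known, so that its direction is not independent evidence. Il6, Lcn2, Il1b, Ptgs2, Csf3, Arg1 and Nos2 were under 1 TPM in every control library. They passed the filter only through LPS libraries, which fixed their direction in advance, so neither the count nor the median is support. Saa3, an acute-phase serum amyloid, had the highest level, a mean of 100091 TPM with LPS, and Lcn2, which binds siderophores, rose from 0.227 ± 0.260 to 3199 ± 174 TPM (limma adjusted p = 6.84e-09 for both). Csf3, which encodes the granulocyte growth factor, was listed at 0 in every untreated library and had 34.9, 34.7 and 34.1 TPM with LPS. Neutrophil markers moved with this list: the sum of 14 of them ranged from 68.0 to 73.3 TPM without LPS and from 3255 to 3592 TPM with LPS, and its part in the result was not tested. Lcn2, which both lists hold, made up most of that sum. Of the 14 neutrophil markers 5 were tested and all 5 were called higher, where 16.3% of all tested genes were. Lcn2 is 1 of these 5 and Csf3r another, at 31.3 ± 1.27 TPM without LPS and 109 ± 4.65 TPM with LPS. Ly6g, Retnlg, Prtn3, Mpo, Elane, Ngp, Ltf and Cxcr2 were under 1 TPM in every library.

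Targets of PU.1 and C/EBP alpha were mixed. Of 12 listed 10 were tested, 6 rose and 3 fell, or 7 and 1 after scaling. For all tested genes the shares were 16.3% higher and 59.8% lower, or 33.5% and 33.6% after scaling. The Fc receptor gene Fcgr1 rose from 106 ± 4.86 to 529 ± 29.0 TPM and Csf3r, the receptor for granulocyte colony-stimulating factor and a neutrophil marker as well, from 31.3 ± 1.27 to 109 ± 4.65 TPM (limma adjusted p = 6.31e-08 and 1.85e-07). Fcgr3 fell from 761 ± 28.1 to 476 ± 33.9 TPM (limma adjusted p = 4.02e-05). Its log2 change was -0.68, or -0.18 after scaling (limma adjusted p = 0.0321). The kinase gene Btk fell from 61.1 ± 2.59 to 43.9 ± 1.36 TPM (limma adjusted p = 0.000150), a change of 0.02 after scaling. Mpo and Elane, granule genes of early granulocytes, had at most 0.12 TPM. Lyz2, the lysozyme gene, rose from 21394 ± 744 to 29245 ± 1201 TPM (limma adjusted p = 0.000371), and its change was -0.00 under quantile normalization.

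Among other myeloid lineage factors 3 of 16 tested rose and 10 fell, or 8 and 8 after scaling. The shares of all tested genes were 16.3% and 59.8%, or 33.5% and 33.6% after scaling. The largest fall was that of Id3, an inhibitor of basic helix-loop-helix factors, from 228 ± 13.5 to 11.1 ± 1.09 TPM (limma adjusted p = 2.46e-08). Id2, the most abundant of the list, fell from 286 ± 29.2 to 146 ± 2.29 TPM, and Egr2 from 4.92 ± 0.270 to 0.760 ± 0.125 TPM (limma adjusted p = 1.65e-05 and 5.98e-06). Its relative Egr1 rose from 5.74 ± 0.548 to 14.1 ± 1.27 TPM (limma adjusted p = 3.22e-05). Gfi1, a repressor known from granulocytes, was listed at 0 in every untreated library and had 1.84, 2.35 and 3.66 TPM with LPS. It passed the filter only through LPS libraries, and Egr2, under 1 TPM in every LPS library, only through control libraries. The filter thus fixed the direction of both calls. Of the genes listed beside the C/EBP factors, Ddit3, the stress-induced CHOP, rose from 32.1 ± 3.88 to 41.8 ± 1.85 TPM. Cebpg fell from 19.7 ± 2.35 to 9.94 ± 0.410 TPM (limma adjusted p = 0.00653 for Ddit3 and 9.65e-05 for Cebpg). Cebpz was on that list but was left out of the C/EBP sum above, and is not counted here as a C/EBP factor. It fell from 12.8 ± 0.777 to 10.7 ± 0.643 TPM (limma adjusted p = 0.0272), a change that turned to 0.21 after scaling. Its call was also lost without control replicate 2 or 3 or LPS replicate 1 or 3 (limma adjusted p = 0.0730, 0.0763, 0.0537 and 0.0790).

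**Figure D4:**
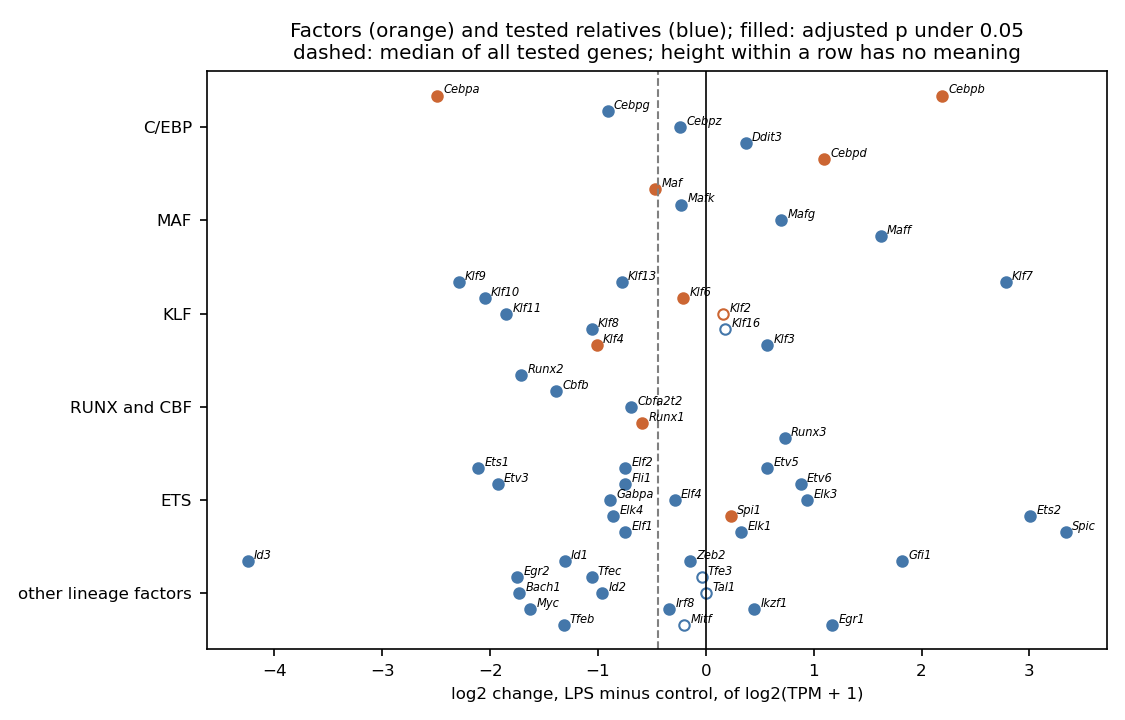
Change of log2(TPM + 1), LPS minus control, of the 9 factors (orange) and the tested genes listed beside them (blue). Rows follow the lists, and the C/EBP row also holds Cebpz, which the C/EBP sum leaves out. Filled points had an adjusted p under 0.05 and the dashed line is the median of all tested genes, -0.44. Each row holds both rises and falls, with Spic, Ets2 and Klf7 at the right and Id3 at the left.

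The order of the 9 by level differed between the groups. In control libraries it was Spi1, Klf6, Maf, Cebpa, Runx1, Cebpb, Klf2, Cebpd and Klf4, and only the neighbours Cebpb and Klf2 had overlapping libraries. In LPS libraries it was Spi1, Cebpb, Klf6, Maf, Runx1, Klf2, Cebpd, Cebpa and Klf4. There the libraries of Cebpb and Klf6, of Runx1 and Klf2, and of Klf2 and Cebpd overlapped. Klf2 and Cebpb also varied most within control libraries, with coefficients of variation of 13.6% and 23.4%, while those of the other 7 lay between 3.41% and 7.99%.

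Over the 6 libraries the tested gene with the nearest log2(TPM + 1) profile, by Euclidean distance, was Tmbim6 for Spi1 (0.14), Abcg1 for Cebpa (0.23) and Nectin2 for Cebpd (0.18). It was Sh3bp2 for Maf (0.07), Kdm5c for Klf2 (0.26), Cradd for Klf4 (0.26), Rab1a for Klf6 (0.10) and Spg7 for Runx1 (0.10). For Cebpb the nearest gene, Dhx58, lay at 1.04, so no tested gene followed its level and its uneven LPS libraries closely.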

How the data were processed

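RNA sequencing libraries of 3 control and 3 LPS-treated samples were analysed from 1 table. The values are TPM, as the authors deposited them with 2 decimals, and every library has the same sum. The submitters' processing notes name Bowtie 0.12.2, mm8 and mm9 without a role. For the quantifier, annotation and strand use, nothing is stated in the labels or file headers. TPM keeps no read depth, so depth and detection limits are unknown, and an exact 0 can be a failed estimate. The table also holds the authors' mean TPM per group, as deposited, and gene lengths (not used further).

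A gene was tested when 3 or more libraries reached 1 TPM (12440 of 55736), with limma 3.58.1 (R 4.3.3; lmFit, eBayes with trend) on log2(TPM + 1). The two-sided p-values were adjusted by Benjamini-Hochberg across the whole tested set, and 0.05 was the limit. This scale understates the change of low genes. The labels name no separate cultures or animals: the p-values then reflect just the spread among these samples, which may be technical. Single values and ratios had exact permutation tests. Loci come from GENCODE M21 (GRCm38), matched by identifier for 52081 genes (93.4%), and promoters from RefSeq. No protein comparison was made, and 1 planned ratio and 1 related gene are not reported here.

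The factors, gene lists and tests were chosen with earlier results of these data known. Beside the 9 factors, the text names in each list the 2 called genes with the largest rise and the 2 with the largest fall, the most abundant one, and the nearest profiles. Csf3, the genes that overlap a factor, and genes named as at 0 or under 1 TPM were named after their values were seen. Lists of T or NK, B, mast and stromal cell markers summed to at most 2.77, 1.12, 0.32 and 9.53 TPM. Dendritic markers summed to 8.21 to 14.0 TPM, and erythroid or megakaryocyte markers to 157 to 205 TPM, nearly all of it Pf4.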

Additional observations from a re-analysis of the deposited data

How the results depend on the processing

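Cebpa, Cebpb, Cebpd, Spi1 and Klf4 kept their direction and their call under all 17 alternatives, with changes from -2.59 to -2.01, 1.82 to 2.68, 1.01 to 1.59, 0.14 to 0.73 and -1.15 to -0.42. Scaling decided the others. Median-of-ratios scaling called 4167 genes higher and 4181 lower, upper-quartile scaling 3543 and 4875, and quantile normalization 4029 and 4257, against 2028 and 7441 on TPM as deposited; of the 9 factors the first called 5 higher and 2 lower, and the second 5 and 3. Klf6 changed sign with median-of-ratios (0.29) and upper-quartile scaling (0.17) and when TPM were rescaled without Saa3 and Fth1 (0.04, limma adjusted p = 0.426), and lost its call under quantile normalization (-0.09, limma adjusted p = 0.0816). Maf turned to 0.03 after median-of-ratios scaling and lost its call with upper-quartile scaling (-0.09), and Runx1 lost its call after median-of-ratios scaling (-0.10). Klf2 was called higher under all 3 normalizations and with Saa3 and Fth1 left out (0.41). Among the genes named from the other lists, signs also turned after median-of-ratios scaling for Btk (0.02), Cebpz (0.21) and Mafk (0.24). After upper-quartile scaling they turned for Cebpz (0.11) and Mafk (0.13). Under quantile normalization they turned for Cebpz (0.30), Mafk (0.28) and Lyz2 (-0.00), and with Saa3 and Fth1 left out for Mafk (0.00). Quantile normalization did not move genes alike: Spi1 stayed at 0.23 while Lyz2 moved down and Cebpz up. The cause of these differences was not tested.

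Leaving out 1 library gave 3 factors higher and 5 lower each time, with 1899 to 2012 genes higher and 7051 to 7260 lower overall. Deviations from the group mean had correlations of 0.0744, -0.151 and 0.0765 between same-numbered libraries and of -0.192 to 0.119 between differently numbered ones. So few values cannot decide whether same-numbered libraries share an origin, which the labels do not state. With the replicate number as a block 1993 genes were higher and 7304 lower, and 3 and 5 of the factors, while Cebpz lost its call (limma adjusted p = 0.0575). Without the filter, most rows of the table have no spread, which makes limma's variance estimate unreliable there. With 3 libraries a group, exact tests could not go below p = 0.1.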
